A study of Homo sapiens with 6 samples.

Results

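The CCN family comprises the 6 human genes CCN1 to CCN6, which encode secreted matricellular proteins, and their RNA levels in HEK293 cells with and without a FAM60A knockout are described here. The members were chosen by gene name and taken whole: CCN1 (CYR61), CCN2 (CTGF), CCN3 (NOV), CCN4 (WISP1), CCN5 (WISP2) and CCN6 (WISP3), which are 6 of the 62754 genes in the table of counts. The family was proposed with its earlier measured counts in these libraries known, and control replicate 3 was set apart from control replicates 1 and 2 because of those counts. The values of these 3 sets of libraries are therefore given side by side as a description, with no test between control libraries. The comparison of knockout with control by the labelled groups is given with and without control replicate 3. Because control replicate 3 was set apart by these same counts, p-values of the fit without it are not independent evidence of a difference.

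The study asked what the loss of FAM60A, a subunit of the Sin3/HDAC corepressor, does to gene expression and to Hippo signalling. By immunoblot it reported higher CTGF (CCN2), CYR61 (CCN1) and YAP1 protein in FAM60A-knockout cells. RNA alone is described here, and how it relates to those protein levels was not tested. RNA-seq libraries came from 3 control samples and 3 samples labelled Fam60 knockout, all grown in the same serum-containing medium. HEK293 is an adherent line from human embryonic kidney, and the labels name both HEK293 and HEK293T, its derivative that carries the SV40 large T antigen. Cells of the knockout group formed a pool selected with puromycin, not a clone, after transfection of Cas9 with guide RNAs against 3 regions of FAM60A. The sources used here do not say what vector or selection the control cells received, nor whether replicates were separate cultures, so p-values measure only the spread between these samples, which may be technical.

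Total counts lay between 88361827 and 93346824 per library, so that a floor of 3 counts corresponded to 0.0309 to 0.0356 CPM (counts scaled to library size with edgeR's TMM factors, as in every CPM value here). FAM60A itself (listed as ENSG00000139146, current symbol SINHCAF) had 11028, 10165 and 12792 counts in control replicates 1 to 3 and 5684, 5793 and 5449 in the knockout. Its level was 117 ± 13.7 CPM in control and 65.1 ± 3.01 CPM in knockout cells (SD, n = 3 each). Every knockout library lay below every control, and the log2 fold change was -0.85 with a standard error of 0.11 (edgeR adjusted p = 0.00864). Leaving out knockout replicate 1, 2 or 3 raised the edgeR adjusted p to 0.0719, 0.0571 or 0.0736, past the threshold, and without control replicate 3 the log2 fold change was -0.78. FAM60A has processed pseudogenes whose reads may be split with it, which was not tested. Control replicate 3 stood apart within its group. It differed at least 4-fold from control replicates 1 and 2 in 1554 to 1588 of 21031 genes averaging 10 or more counts. Between control replicates 1 and 2 this number was 6. Control replicate 3 differed from the knockout libraries in 664 to 723 of them, and knockout libraries among themselves in 10 to 13. All 8 HEK293 markers were above the floor in at least 1 library, with a summed level of 1021 to 1870 CPM in control and 849 to 983 CPM in knockout libraries.

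CCN proteins are cysteine-rich proteins of the extracellular matrix that bind integrins, heparan sulfate proteoglycans and growth factors, and so modulate adhesion, migration and matrix production. CCN1 and CCN2 are immediate early genes that respond to serum, TGF-beta and mechanical load, and they are the most commonly used target genes of the Hippo pathway, in which the coactivators YAP and TAZ bind the TEAD factors at promoters and enhancers. CCN3 often counteracts CCN2, CCN4 is induced by WNT signalling through beta-catenin, CCN5 lacks the C-terminal domain of the other members, and CCN6 is mutated in progressive pseudorheumatoid dysplasia.

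The promoter of CCN2 is shown because CCN2 was the member with the widest range across libraries and because TEAD factors recognize the core GGAATG. The 250 bases before the annotated start of CCN2 are given 5′ to 3′ on the gene's strand, at chr6:131951373-131951622 (minus strand, RefSeq annotation of GRCh38.p14), with GGAATG in capitals.
CCN2: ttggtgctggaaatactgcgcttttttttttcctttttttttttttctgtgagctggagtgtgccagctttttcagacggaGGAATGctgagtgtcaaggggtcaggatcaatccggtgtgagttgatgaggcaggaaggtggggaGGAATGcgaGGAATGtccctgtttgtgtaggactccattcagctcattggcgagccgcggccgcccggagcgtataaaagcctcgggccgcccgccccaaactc
GGAATG occurred at bases -169 to -164, -104 to -99 and -95 to -90, counted back from the start, and TATAAA, the usual core promoter box, at bases -32 to -27. Both motifs were searched on both strands in windows of the same length, and they do not overlap each other here. GGAATG was present in 4175 of all 35116 promoters (11.9%), and 29 promoters (0.0826% of all) held it 3 or more times, as CCN2 did. TATAAA was present in 10.7% of all promoters. Promoters of 2 of the 6 members, CCN2 and CCN6, matched a RefSeq entry. The CCN6 window, before a start that lies inside the annotated span of the gene, held GGAATG once, at bases -128 to -123. Among 17 matched promoters of 20 other YAP/TAZ-TEAD target genes, 7 (41.2%) held GGAATG: NUAK2, PTPN14, TGFB2, AMOTL2, FOXF2, ANKRD1 and AXL. A motif match describes the sequence and shows no binding.

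CCN1 and CCN2 were the abundant members in control replicates 1 and 2 and were low in every other library, and CCN3 showed the opposite order. CCN4 was under the floor of 3 counts in all 6 libraries, and CCN5 and CCN6 were low, with 5 to 35 counts. In the comparison by labels, CCN2 was the 1 member called, and it was lower in knockout cells. At an edgeR adjusted p of at most 0.05, 3491 of 20992 genes tested were called (16.6%), 1671 higher (7.96%) and 1820 lower (8.67%) in knockout cells. Of the 6 members, 5 passed the filter on low counts and CCN4 did not. The median log2 fold change of these 5 members was -0.19, which is the value of CCN5, beside -0.0081 over all genes tested. Without TMM scaling, 31.6% of the calls were higher, beside 47.9% with it, the median of all genes moved by -0.11, and the fitted direction of every tested member stayed as it was. Bulk RNA cannot tell fewer cells that express a gene from less RNA per cell.

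**Figure D1:**
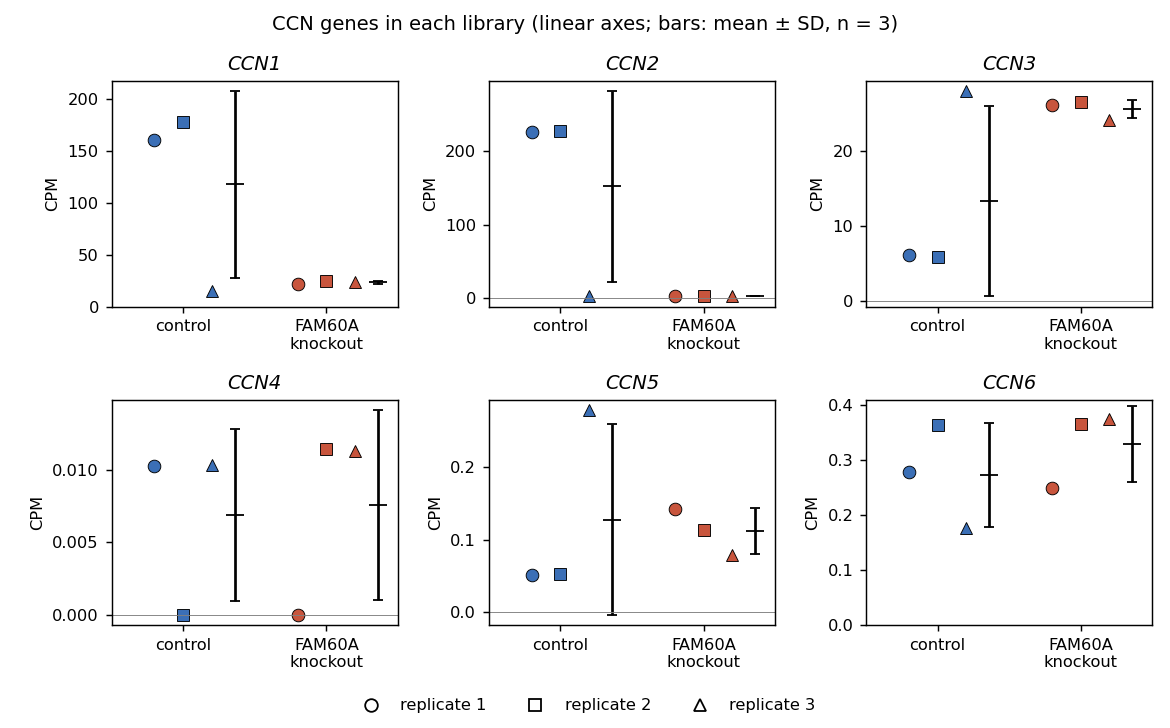
Level of each CCN gene in CPM on a linear axis of its own, with 1 point per library (shapes mark replicates 1 to 3) and the mean ± SD of each group beside the points (n = 3). CCN1 and CCN2 are high in control replicates 1 and 2 alone, CCN3 is low in the same libraries, and the CCN4 points stand for 0 or 1 counts.

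CCN2 (ENSG00000118523, chromosome 6, 131948176 to 131951372 on GRCh38.p14) encodes connective tissue growth factor, a profibrotic protein induced by TGF-beta and by YAP. It held 21941 and 21764 counts in control replicates 1 and 2, 274 in control replicate 3, and 315, 322 and 321 in the knockout libraries. In CPM these were 226, 227 and 2.84 in control, and 3.74, 3.67 and 3.63 in knockout libraries. The knockout libraries thus all lay inside the control range, just above control replicate 3 and far below the other controls. The mean of control replicates 1 and 2, 226 CPM, was 79.7-fold above control replicate 3 and 61.4-fold above the knockout mean, and the knockout mean was 1.30-fold above control replicate 3. By labels, CCN2 averaged 152 ± 129 CPM in control and 3.68 ± 0.0536 CPM in knockout cells (SD, n = 3 each). The spread of log2 CPM was 3.64 (SD) among controls and 0.021 among knockout libraries. This gave a log2 fold change of -5.36 with a standard error of 1.41 (edgeR adjusted p = 0.0485). A two-sided exact permutation test on log2 CPM gave p = 0.4, where 0.1 is the smallest p that 3 against 3 libraries allow. In the fit without control replicate 3 it was -5.97 (edgeR adjusted p = 5.26e-22), resting on control replicates 1 and 2 alone. Leaving out control replicate 1 or 2 lost the call (edgeR adjusted p = 0.108 and 0.120), as did leaving out knockout replicate 1, 2 or 3 (0.184, 0.164 and 0.179). limma-voom did not call CCN2 either (log2 fold change -3.81, adjusted p = 0.283), and over all 12 alternatives the adjusted p ranged from 5.26e-22 to 0.283. CCN2 overlaps the lncRNA LINC01013 on the opposite strand, which held 1 to 14 counts per library.

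CCN1 (ENSG00000142871, chromosome 1, 85580761 to 85583950) encodes a pro-angiogenic and adhesive protein that cells induce within minutes of serum stimulation. CCN1 counts were 15593 and 17087 in control replicates 1 and 2, 1404 in control replicate 3, and 1864, 2124 and 2048 in the knockout libraries. These counts corresponded to 160, 178 and 14.5 CPM in control, and to 22.1, 24.2 and 23.2 CPM in knockout libraries. As for CCN2, the knockout libraries lay between control replicate 3 and the other controls. The mean of control replicates 1 and 2, 169 CPM, was 11.6-fold above control replicate 3 and 7.30-fold above the knockout mean, and the knockout mean was 1.60-fold above control replicate 3. The labelled groups averaged 118 ± 89.7 and 23.2 ± 1.04 CPM (SD, n = 3 each). Their log2 fold change of -2.34 (standard error 0.81) missed the threshold, with an edgeR adjusted p of 0.0959 and an unadjusted p of 0.0255, and the exact permutation test gave p = 0.4. Without control replicate 3 it was -2.90 (edgeR adjusted p = 8.65e-18), and DESeq2 called CCN1 with all 6 libraries (-2.37, adjusted p = 0.00533). Over 12 alternatives the log2 fold change stayed negative, from -2.90 to -1.65, and the adjusted p ranged from 8.65e-18 to 0.294.

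CCN3 (ENSG00000136999, chromosome 8, 119416446 to 119424434) was first found as a gene overexpressed in virus-induced kidney tumours and is expressed in nervous and musculoskeletal tissue. CCN3 counts were 593 and 562 in control replicates 1 and 2, 2701 in control replicate 3, and 2196, 2324 and 2136 in the knockout libraries. In CPM, control replicates 1, 2 and 3 held 6.10, 5.85 and 28.0, and the knockout libraries 26.1, 26.5 and 24.2. Control replicate 3 was the highest of the 6 libraries, with the knockout libraries close below it. Control replicate 3 was 4.68-fold and the knockout mean 4.28-fold above the mean of control replicates 1 and 2, and the knockout mean was 0.915 times control replicate 3. The labelled groups averaged 13.3 ± 12.7 CPM in control and 25.6 ± 1.23 CPM in knockout cells (SD, n = 3 each). The log2 fold change of 0.94 with a standard error of 0.62 (edgeR adjusted p = 0.324) was not called, with an exact permutation p of 0.4. Without control replicate 3 it was 2.07 (edgeR adjusted p = 2.00e-14), and over 12 alternatives it lay between 0.58 and 2.07 with an adjusted p between 2.00e-14 and 0.585. The antisense lncRNAs that overlap CCN3 held at most 5 counts.

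CCN4, CCN5 and CCN6 together contributed few reads. CCN4 (ENSG00000104415, chromosome 8, 133191039 to 133231690) held 1, 0 and 1 counts in control and 0, 1 and 1 in knockout libraries, all under the floor of 3 counts, so a difference was not detectable at this depth. CCN5 (ENSG00000064205, chromosome 20, 44714861 to 44727811) held 5, 5 and 27 counts in control and 12, 10 and 7 in knockout libraries. The highest CCN5 level, 0.280 CPM, was again in control replicate 3, while the knockout libraries lay between 0.0793 and 0.143 CPM and control replicates 1 and 2 at 0.0514 and 0.0521 CPM. CCN5 averaged 0.128 ± 0.132 CPM in control and 0.112 ± 0.0317 CPM in knockout cells (SD, n = 3 each), a log2 fold change of -0.19 with a standard error of 0.73 (edgeR adjusted p = 0.877). The direction was the opposite in the fits without control replicate 3 (1.06, edgeR adjusted p = 0.0854) and without knockout replicate 3 (0.013). CCN5 overlaps the antisense lncRNA KCNK15-AS1, with 7, 6 and 29 counts in control and 7, 5 and 6 in knockout libraries. The overlap is of whole gene spans and the counting is not stated to use strand. Whether the exons of these genes share reads was not tested.

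CCN6 (ENSG00000112761, chromosome 6, 112052813 to 112069686), which maintains cartilage, was the tested member for which control replicate 3 did not lie nearer to the knockout libraries. It held 27, 35 and 17 counts in control and 21, 32 and 33 in knockout libraries, or 0.278, 0.364 and 0.176 CPM against 0.249, 0.365 and 0.374 CPM. The groups overlapped, at 0.273 ± 0.0943 and 0.329 ± 0.0693 CPM (SD, n = 3 each). Their log2 fold change was 0.27 with a standard error of 0.34 (edgeR adjusted p = 0.609), and 0.0099 without control replicate 3, and the adjusted p over the alternatives lay between 0.417 and 0.978. Exact permutation tests gave p = 0.6 for CCN4, 0.8 for CCN5 and 0.5 for CCN6. For CCN5 the difference in mean log2 CPM under this test was 0.16, opposite in sign to the fitted log2 fold change of -0.19.

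Over the family, the 3 knockout libraries all lay inside the control range for 4 of the 5 tested members (CCN1, CCN2, CCN3 and CCN5), beside 30.1% of all genes tested. Of the 5, 0 had the knockout libraries all above every control, beside 21.5% of all genes, and 0 all below, beside 20.1%. Control replicate 3 was nearer to the knockout mean than to the mean of control replicates 1 and 2 for 4 of the 5, beside 58.9% of all genes tested. These counts describe the values on which control replicate 3 was set apart. In the fit without control replicate 3, 3 of 5 members were called (CCN1 and CCN2 lower, CCN3 higher), beside 65.6% of the 21686 genes tested in that fit, 33.2% lower and 32.4% higher. The median log2 fold change of the 5 members was then 0.0099, which is the value of CCN6, and that of all genes -0.0024.

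**Figure D2:**
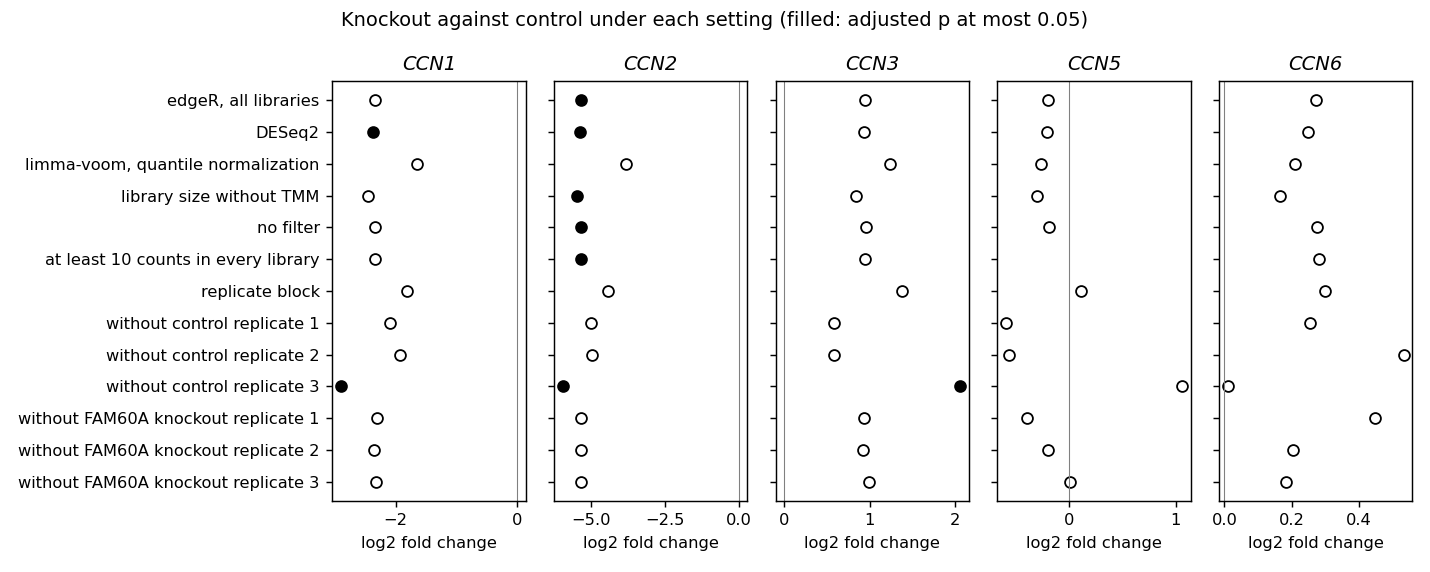
Fitted log2 fold change, knockout over control, of the tested CCN genes with all 6 libraries and under each alternative, each panel with its own axis. Filled points mark an adjusted p of at most 0.05. CCN1 and CCN2 stay below 0 and CCN3 above 0 in every fit shown, while CCN5 changes sign.

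To compare levels between members, CPM were divided by the length of each gene's merged exons in kilobases (CPM per kb). The family sum on this scale was 142 and 147 in control replicates 1 and 2, 16.0 in control replicate 3, and 17.7, 18.5 and 17.3 in the knockout libraries. CCN2 made up 67.8% and 65.7% of this sum in control replicates 1 and 2, 7.59% in control replicate 3, and 8.50% to 9.03% in the knockout libraries. The share of CCN1 varied less, at 30.5% and 32.6% in control replicates 1 and 2, 24.6% in control replicate 3 and 33.8% to 36.3% in knockout libraries. CCN3 took the leading place outside control replicates 1 and 2, where it held 1.64% and 1.52%. It made up 66.9% of the family sum in control replicate 3 and 53.5% to 56.3% in knockout libraries. The order of levels per kb was thus CCN2, CCN1, CCN3 in control replicates 1 and 2, and CCN3, CCN1, CCN2 in the other 4 libraries, with CCN4, CCN5 and CCN6 below these in all 6. Within the libraries the gaps between CCN1, CCN2 and CCN3 exceeded the spread of each member among the knockout libraries. The ratio of CCN2 to CCN1 per kb was 2.23 and 2.02 in control replicates 1 and 2, 0.309 in control replicate 3, and 0.240 to 0.267 in the knockout libraries. The ratio of CCN3 to CCN2 went from 0.0242 and 0.0231 to 8.82 in control replicate 3 and to 5.95 to 6.46 in knockout libraries.

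**Figure D3:**
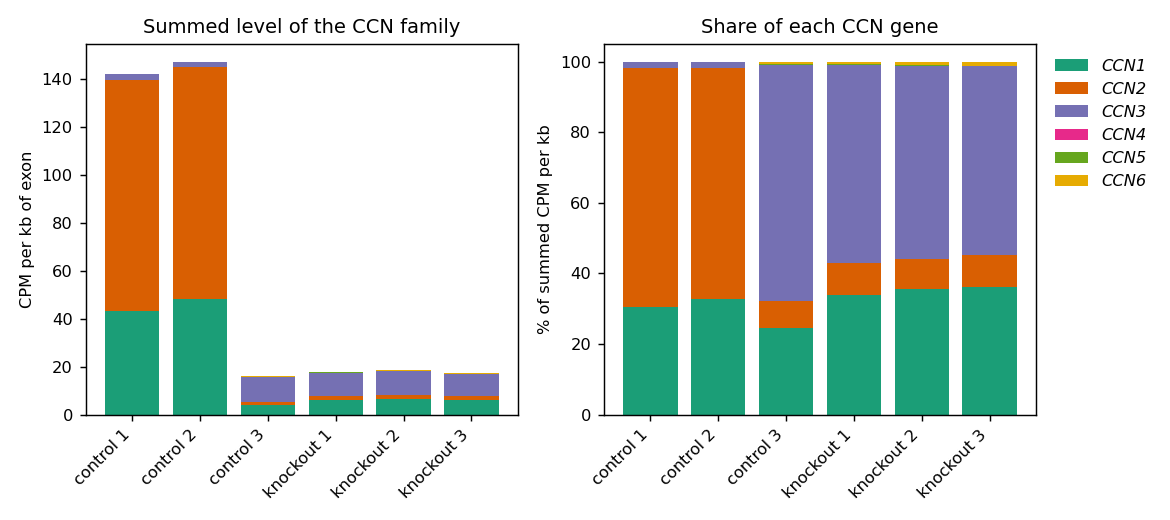
Summed level of the CCN family in CPM per kb of merged exons (left) and the share of each gene in that sum in percent (right), with 1 stacked bar per library. CCN2 fills most of the bar in control replicates 1 and 2, and CCN3 in control replicate 3 and the knockout libraries, where the whole bar is lower.

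Set among all tested genes by CPM per kb, CCN2 fell at the 98.0th and 97.8th percentile in control replicates 1 and 2, the 42.1st in control replicate 3 and the 46.2nd to 46.8th in the knockout libraries. CCN1 stood at the 94.8th and 95.1st percentile in control replicates 1 and 2, the 61.4th in control replicate 3 and the 69.0th to 70.7th in knockout libraries. CCN3 moved from the 53.7th and 53.1st percentile in control replicates 1 and 2 to the 80.0th in control replicate 3 and to the 77.4th to 78.5th in knockout libraries. CCN2 therefore passed from among the most abundant transcripts to below the middle of the tested genes.

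Marker genes of other cell types were compared in the same libraries. Fibroblast markers, of which COL1A2 was at or under the floor, summed to 26.4 to 30.2 CPM in control and 28.2 to 28.9 CPM in knockout libraries, but 3 of the 6 tested were called in opposite directions. COL1A1, a collagen chain that makes up most of the sum, fell from 23.6 ± 3.82 to 14.9 ± 1.19 CPM (log2 fold change -0.66, edgeR adjusted p = 0.0361). LUM, a proteoglycan, rose from 1.77 ± 1.12 to 8.31 ± 1.03 CPM (2.23, 0.0463; SD, n = 3 each). DCN, another proteoglycan, held 0, 1 and 1 counts in control and 30, 33 and 33 in knockout libraries (edgeR adjusted p = 0.00373). The calls of COL1A1 and LUM were lost without any one library other than control replicate 3 (edgeR adjusted p up to 0.163 and 0.162, without knockout replicate 1). Both were also lost with the replicate block. These markers were named after their values were seen. The 4 endothelial markers used (PECAM1 was not used here) summed to 0.921 to 1.57 CPM in control and 0.333 to 0.513 CPM in knockout libraries, and 1 of the 2 tested was called lower. Blood cell markers, with CD3E at the floor, summed to 0.311 to 1.77 CPM in control and 0.380 to 0.524 CPM in knockout libraries. Markers of MDA-MB-231, the other line of the study, summed to 103 to 422 CPM in control libraries, of which control replicate 3 was the lowest, and to 119 to 132 CPM in knockout libraries, with 1 of the 5 tested called higher. ANXA1 carried most of this range, at 17.0 CPM in control replicate 3 beside a mean of 290 in control replicates 1 and 2. CD44, KRT7 and CAV1 were also lower in control replicate 3, whereas S100A4, PLAU and KRT81 were higher. The HEK293 marker sum of control replicate 3, 1021 CPM, was also the lowest among controls, and 2 of the 8 were called lower in knockout cells. Over all genes tested, 7.96% were called higher and 8.67% lower. Against the mean of control replicates 1 and 2, control replicate 3 was lower for LHX1, KRT8, KRT18, VIM and CDH2. It was higher for PAX2, NEFL (143 beside 79.6 CPM) and NEFM. The part of these differences in the CCN values was not tested.

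Factors that act on CCN promoters were next counted. Of 19 upstream regulators, all tested, 1 was called higher and 3 lower, beside 7.96% and 8.67% of all genes, with a median log2 fold change of -0.37. YAP1, the Hippo-regulated coactivator, had 5898, 5595 and 3909 counts in control and 3136, 3604 and 3429 in knockout libraries, and its log2 fold change of -0.44 was not called (edgeR adjusted p = 0.115). The log2 fold changes of WWTR1, which encodes TAZ, TEAD1, TEAD3 and TEAD4 were -0.30, -0.37, -0.89 and -0.07, with edgeR adjusted p of 0.267, 0.116, 0.0635 and 0.685. TEAD2, another of the DNA-binding partners of YAP, fell from 30.2 ± 2.39 to 15.8 ± 1.03 CPM (SD, n = 3 each), a log2 fold change of -0.94 (edgeR adjusted p = 0.00721), with 2845, 3163 and 2748 counts in control and 1358, 1459 and 1293 in knockout libraries. For TEAD2, control replicate 3 lay with the other controls, unlike for CCN1 and CCN2. The TGF-beta side held the other calls. TGFB3, a TGF-beta ligand, rose with a log2 fold change of 1.04 (edgeR adjusted p = 0.0147), whereas the ligand TGFB1 (-0.74, 0.0462) and SMAD4, the common partner of receptor-activated SMADs (-0.73, 0.0216), fell. The calls of TGFB3, TGFB1 and SMAD4 were lost without any one library other than control replicate 3 (edgeR adjusted p from 0.0567 to 0.183), and that of TGFB1 also with no filter (0.0516). That of TEAD2 was lost without knockout replicate 1 (0.0654) or 3 (0.0645). With the replicate block 1 of these 4 calls remained. In the fit without control replicate 3, 2 of the 19 were higher and 11 lower, beside 32.4% and 33.2% of all genes, with a median log2 fold change of -0.52.

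Genes that share the upstream factors of CCN1 and CCN2 were counted from lists. Of 20 other YAP/TAZ-TEAD target genes, 1 was called higher and 2 lower, beside 7.96% and 8.67% of all genes. In 8 of the 20 the knockout libraries lay inside the control range, beside 30.1% of all genes. The median log2 fold change of the 20 was -0.20. ANKRD1, a muscle ankyrin repeat protein and common YAP reporter, had 8482, 7423 and 69 counts in control and 51, 46 and 57 in knockout libraries, a pattern with low counts in control replicate 3 as for CCN2. It fell from 55.1 ± 47.3 to 0.592 ± 0.0617 CPM (SD, n = 3 each), a log2 fold change of -6.54 (edgeR adjusted p = 0.0398) and -7.15 without control replicate 3. AMOTL2, an angiomotin that binds YAP, fell from 28.2 ± 15.7 to 7.12 ± 0.421 CPM (log2 fold change -1.98, edgeR adjusted p = 0.0393), with 3532, 3661 and 974 counts in control and 561, 657 and 637 in knockout libraries. FJX1, a secreted relative of Drosophila four-jointed, rose from 25.5 ± 2.71 to 57.0 ± 3.55 CPM (log2 fold change 1.16, edgeR adjusted p = 0.00448), and its control replicate 3 did not stand apart, with 2325, 2752 and 2317 counts. The call of FJX1 was kept under all 12 alternatives. Those of ANKRD1 and AMOTL2 were lost with limma-voom and without any one library other than control replicate 3 (edgeR adjusted p from 0.0912 to 0.166). The replicate block lost both as well (edgeR adjusted p = 0.163 and 0.0990). With control replicate 3 left out, 16 of the 20 were called, 5 higher and 11 lower, beside 32.4% and 33.2% of all genes, with a median log2 fold change of -0.31.

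**Figure D4:**
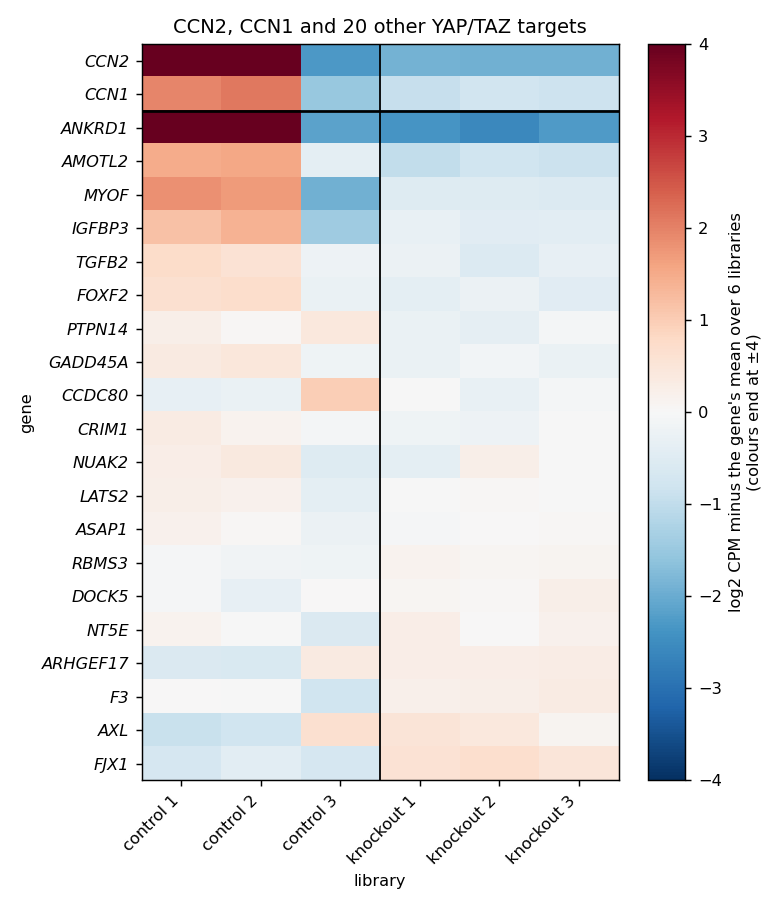
Log2 CPM of CCN1, CCN2 and the other YAP/TAZ-TEAD target genes in each library, centred on the gene's mean over the 6 libraries, with the colour scale ending at -4 and 4. CCN2 and ANKRD1 are high in control replicates 1 and 2 and low in the other 4 libraries, whereas FJX1 is higher in the knockout libraries than in all 3 controls.

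Of 14 immediate early and SRF-MRTF target genes, a group to which CCN1 belongs, 13 were tested, 1 was called higher and 2 lower, beside 7.96% and 8.67% of all genes, with a median log2 fold change of -0.79. CNN2, an actin-binding calponin, fell in knockout cells with a log2 fold change of -2.34 (edgeR adjusted p = 0.00150), from 4975, 4941 and 3852 counts in control to 751, 872 and 820. CNN1, the smooth muscle calponin, had 590, 577 and 96 counts in control and 26, 27 and 26 in knockout libraries (-3.84 on the log2 scale, edgeR adjusted p = 0.0192). FOS, a subunit of the AP-1 factor, was the gene called higher, with 529, 526 and 315 counts in control and 849, 1012 and 792 in knockout libraries (1.11, 0.0312). CNN2 kept its call under all 12 alternatives, and CNN1 and FOS lost theirs with limma-voom and without any one library other than control replicate 3 (edgeR adjusted p from 0.0570 to 0.129). CNN1 and FOS were not called with the replicate block either. With control replicate 3 left out, 3 of 14 were called higher and 9 lower, beside 32.4% and 33.2%.

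Of 6 TGF-beta/SMAD target genes, edgeR called 0, beside 16.6% of all genes. An unadjusted edgeR p under 0.05 was found for 4 of the 6 and for 7249 of all 20992 genes tested. DESeq2 called 4, beside 26.8% of the genes to which it gave an adjusted p, and limma-voom 0, beside 17.2%. edgeR without control replicate 3 called all 6, beside 65.6% of all genes, 1 higher and 5 lower. The median log2 fold change was -1.70, and -2.18 without control replicate 3. SMAD7, the inhibitory SMAD, had 13120, 13928 and 2078 counts in control and 2102, 2483 and 2324 in knockout libraries, with a log2 fold change of -1.92 (edgeR adjusted p = 0.0890). SKIL, a SMAD corepressor, had 4141, 3573 and 2131 counts in control and 2221, 2199 and 2535 in knockout libraries (-0.35, 0.350). In both genes control replicate 3 lay with the knockout libraries, as it did in CCN1 and CCN2.

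Of 10 WNT/beta-catenin target genes, the group through which CCN4 is induced, 0 were called higher and 3 lower, beside 7.96% and 8.67% of all genes, and the median log2 fold change was 0.0094. The 3 were APCDD1 (log2 fold change -1.48, edgeR adjusted p = 0.0174), NOTUM (-1.21, 0.0279) and NKD1 (-0.81, 0.0226). APCDD1 had 1501, 1491 and 838 counts in control and 399, 460 and 374 in knockout libraries. Each of the 3 calls was lost without control replicate 2 and without any one knockout library, and those of APCDD1 and NKD1 also without control replicate 1 (edgeR adjusted p from 0.0583 to 0.138). None of the 3 was called with the replicate block. The fit without control replicate 3 called 4 higher and 3 lower, beside 32.4% and 33.2% of all genes.

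Receptors and co-receptors described for CCN proteins were then examined on the same cells. Of 16, all tested, 4 were called higher and 1 lower, beside 7.96% and 8.67% of all genes, with a median log2 fold change of 0.17. SDC4, a heparan sulfate proteoglycan of focal adhesions, rose from 33.4 ± 2.37 to 102 ± 0.268 CPM (SD, n = 3 each), a log2 fold change of 1.61 (edgeR adjusted p = 0.00134), and kept its call under all 12 alternatives. Its counts were 3450, 3263 and 2979 in control and 8643, 8959 and 9053 in knockout libraries, so that control replicate 3 lay with the other controls. ITGAM, the alpha chain of an integrin of blood cells, was low throughout, with 20, 16 and 13 counts in control and 47, 35 and 45 in knockout libraries (1.52, 0.0178). FGFR2, a fibroblast growth factor receptor, rose (0.71, 0.0327), and LRP1, an endocytic receptor that takes up CCN2, fell (-0.90, 0.0429). LRP6, the WNT co-receptor, rose (0.47, 0.0389), and was named after its value was seen. The calls of ITGAM, FGFR2, LRP1 and LRP6 were lost without any one library other than control replicate 3 (edgeR adjusted p from 0.0507 to 0.171). They were also lost with the replicate block (edgeR adjusted p from 0.0589 to 0.0700). That of LRP6 was lost too without TMM scaling (edgeR adjusted p = 0.0778) and with no filter (0.0585). In the fit without control replicate 3, 5 were called higher and 4 lower, beside 32.4% and 33.2% of all genes, with a median log2 fold change of 0.13.

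Of 17 other matricellular genes, 15 were tested, 0 were called higher and 2 lower, beside 7.96% and 8.67% of all genes, with a median log2 fold change of -0.61. SPARC, a collagen-binding matricellular protein, fell from 159 ± 50.8 to 60.4 ± 2.03 CPM (SD, n = 3 each), a log2 fold change of -1.39 (edgeR adjusted p = 0.0172), with 17722, 18606 and 9721 counts in control and 5009, 5506 and 5215 in knockout libraries. SMOC2, a SPARC-related calcium-binding protein, had 39, 26 and 26 counts in control and 5, 7 and 6 in knockout libraries (-2.16, 0.0110). Both calls were lost without any one knockout library, and that of SPARC also without control replicate 1 or 2 (edgeR adjusted p from 0.0579 to 0.102). Neither SPARC nor SMOC2 was called with the replicate block. When control replicate 3 was left out, 5 of 16 were called higher and 8 lower, beside 32.4% and 33.2%. Over the 102 genes of these 7 lists, 20 were called, beside 16.6% of all genes, and 76 without control replicate 3, beside 65.6%.

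The genes whose pattern over the 6 libraries was most like that of each detected member were found by the root mean square (RMS) difference of centred log2 CPM, among 18369 genes. For CCN2 the nearest was DPYD, the enzyme that degrades pyrimidines, at an RMS difference of 0.203, with 943, 872 and 9 counts in control and 16, 14 and 16 in knockout libraries. CPA4, a carboxypeptidase, followed at 0.365 and HDX, a homeobox gene, at 0.520. For CCN1 the nearest were EDN1, which encodes the vasoconstrictor endothelin-1 (0.167), NECTIN3, an adhesion molecule (0.168), and NEFH, the heavy neurofilament (0.192). NECTIN3 had 3030, 2801 and 286 counts in control and 396, 331 and 347 in knockout libraries. For CCN3 the nearest were CMBL, a hydrolase (0.051), and the glycosyltransferase genes B4GALNT4 (0.067) and GALNT18 (0.079). CMBL had 1550, 1503 and 6602 counts in control and 5333, 5745 and 5280 in knockout libraries. The RMS difference is not scaled to a gene's range. Control replicate 3 minus the mean of control replicates 1 and 2 was -6.31 log2 CPM for CCN2 and 2.22 for CCN3. The RMS values therefore do not rank the members by closeness of match.

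**Figure D5:**
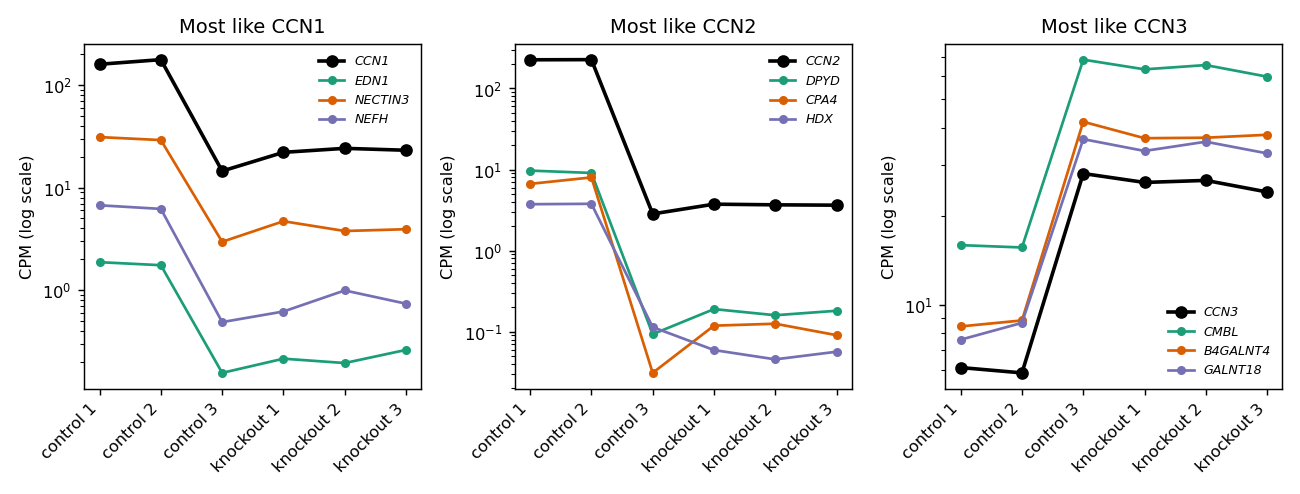
Level of CCN1, CCN2 and CCN3 (black) and of the 3 nearest genes to each (coloured) in every library, in CPM on a log axis. Lines join the points of a gene for reading only, since libraries have no order. The nearest genes lie within 0.079 of CCN3, 0.192 of CCN1 and 0.520 of CCN2 (RMS difference, log2, not scaled to a gene's range).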

How the data were processed

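RNA-seq covered 3 control and 3 FAM60A-knockout samples of HEK293 cells. The authors deposited whole-number counts per Ensembl gene for all 6 libraries, without normalization. Their methods give poly(A) selection, a strand-specific dUTP protocol, Trimmomatic and Salmon on hg38. The submitters' processing notes name STAR 2.7.10b, featureCounts 2.0.0 and hg38, and the extract protocol names hg19. The annotation release is not given in the sources used here.

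Counts were tested in R 4.3.3 with the quasi-likelihood F-test of edgeR 4.0.16 (two-sided), after TMM scaling and the filterByExpr filter at a minimum of 10 counts, with Benjamini-Hochberg adjustment over 20992 genes. Calls used an adjusted p of at most 0.05. Standard errors were the absolute log2 fold change divided by the square root of F. Log2 CPM used a prior count of 2, and the groups were compared for single members by exact permutation tests (two-sided). The fit was tested on simulated counts of 20992 genes: all 200 genes changed by 3 on the log2 scale were called, with 12 unchanged genes. The simulation gave every gene the same dispersion and held no library that stood apart as control replicate 3 did. It therefore cannot show how the fit behaves with such a library. The floor of 3 counts covers counting error only.

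Alternatives were DESeq2 1.42.0, limma-voom (limma 3.58.1) with quantile normalization, no TMM, no filter, at least 10 counts in every library, the replicate number as a block and leaving out each library. A prior count of 0.5 was the alternative for the permutation tests, and the longest transcript that for levels per length. Lengths came from GENCODE gene models lifted to GRCh37, and gene positions and promoters from RefSeq on GRCh38.p14. Symbols were matched for 60878 gene IDs.

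The members and lists were chosen with earlier results of these data known. Named genes were the members, FAM60A, up to 4 called genes per list by absolute log2 fold change (where none was called, the 2 of highest mean CPM), YAP1, WWTR1, TEAD1 to TEAD4, and the 3 nearest patterns to each member with a mean of at least 1 CPM. Figures and tables used Python 3.11.15 with numpy 2.4.6, scipy 1.17.1, pandas 2.3.3 and matplotlib 3.10.9.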

Additional observations from a re-analysis of the deposited data

How the results depend on the processing

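The comparison of knockout with control called 3491 genes, beside 5581 with DESeq2, 407 with the replicate block, all among the 3491, and 167 (without knockout replicate 1) to 14221 (without control replicate 3) when 1 library was left out. Of the 102 listed genes, 20 were called, beside 38 with DESeq2, 4 with the replicate block, and 3 to 76 without 1 library. The CCN2 call (log2 fold change -5.36) was lost with limma-voom (-3.81, adjusted p = 0.283) and with the replicate block (-4.44, edgeR adjusted p = 0.198), and lay between -5.97 and -4.96 without 1 library. CCN1 was called with DESeq2 (-2.37, adjusted p = 0.00533) and lay between -2.90 and -1.92 without 1 library, and CCN3 between 0.58 and 2.07, both called only without control replicate 3 among these fits. FAM60A was not called with the replicate block (-0.84, edgeR adjusted p = 0.0551) and lay between -0.92 and -0.78 without 1 library. CCN5 changed direction with the replicate block (0.11, edgeR adjusted p = 0.935), without control replicate 3 (1.06) and without knockout replicate 3 (0.013), over a range of -0.59 to 1.06. The cause of these changes was not tested. Deviations of same-numbered libraries from their group means correlated at 0.01, 0.031 and -0.036, and control replicate 1 correlated best with knockout replicate 3 (0.077). The control mean includes control replicate 3, which stood apart, so these values cannot show whether the samples were paired. The replicate block rests on the number alone. The differences tested by permutation kept their sign with a prior count of 0.5. A difference in CCN4, at 0 or 1 counts, was not detectable at this depth.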

Other observations

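Genes within 60000 bases of the members (GENCODE models on GRCh37) were read as values. The choice followed sight of their values. DDAH1, 2398 bases from CCN1, had 9452, 8781 and 8610 counts in control and 9160, 10494 and 9283 in knockout libraries (0.26 on the log2 scale, edgeR adjusted p = 0.0959). The lncRNA ENSG00000282057, inside the span of DDAH1 on the same strand and 2511 bases from CCN1, was low in the same libraries as CCN1, with 64, 66 and 6 counts in control and 12, 15 and 2 in knockout libraries (-2.06, 0.183). ENPP1, near CCN2, had 4445, 3842 and 2928 counts in control and 3421, 3302 and 3720 in knockout libraries (0.05, 0.842). The lncRNA LINC01013, whose span overlaps CCN2 on the opposite strand, held 13, 14 and 4 counts in control and 1, 2 and 1 in knockout libraries. The counting is not stated to use strand, and whether LINC01013 and CCN2 share reads was not tested.

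NDRG1, a stress- and hypoxia-responsive gene 5485 bases from CCN4, had 2959, 3077 and 9847 counts in control and 23862, 26246 and 22936 in knockout libraries (2.36 on the log2 scale, edgeR adjusted p = 0.0274), while CCN4 stayed at 0 or 1 counts. Whether the NDRG1 call holds under the alternatives is not given here. RIMS4, near CCN5, was highest in control replicate 3, as CCN5 was, with 2375, 2321 and 5220 counts in control and 1997, 2053 and 2060 in knockout libraries. TUBE1, 977 bases from CCN6, was lowest in control replicate 3, as CCN6 was, with 5261, 4940 and 2986 counts in control and 4879, 4439 and 4981 in knockout libraries (0.27, 0.411). FAM229B and LAMA4, further from CCN6, were also lowest in control replicate 3, with 1698 and 5451 counts there.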
